A study of Homo sapiens with 4 samples.

Results

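The 3 hubs of chromosome band 9q34 were examined in SMC1 ChIA-PET data of Kelly, a human neuroblastoma cell line. In ChIA-PET, chromatin is pulled down with an antibody, here against SMC1 of the cohesin ring, and DNA ends that lie close together are ligated. Each ligation product sequenced from its 2 ends is a paired-end tag (PET). The hubs are windows of hg19 chromosome 9, and an anchor, a segment to which PET ends were assigned, belonged to a hub when its midpoint lay inside. The VAV2 hub was 136600001-137100000, the OLFM1 hub 137700000-138300000 and the NOTCH1 hub 139300000-139700000. They held 45, 47 and 49 anchors, 141 of 39507 in all. Of 720049 anchor pairs listed in either table, 7797 had an anchor in a hub, and 4118 of these were listed in shBORIS and 3999 in shLUC. The windows were chosen by their PET counts in these same 2 tables. Their PET totals and calls are therefore given as a description.

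All cells came from a Kelly derivative that tolerates TAE684, which inhibits the kinase ALK, and was kept in medium with 1 µM of the drug. One group was infected for 24 h with virus carrying a short hairpin construct named shBORIS, and the other with the control shLUC, both with polybrene, and both were selected for 48 h with puromycin. BORIS is encoded by CTCFL, a gene related to that of the insulator protein CTCF. Its own level was not analysed here, so the knockdown is known from the label alone. Each group had 2 libraries, and its single table was read as their pool. The protocol speaks of a single shBORIS construct, but the labels do not say whether the numbers in the 2 shBORIS titles mark replicates or different hairpins, so the pool may mix hairpins. No value below has a replicate error, and intervals (95%, exact) cover counting error only. A derivative of 1 cell line was studied. The table of shBORIS held 163041 intrachromosomal PETs and that of shLUC 146140. Ratios are shBORIS over shLUC after division by these totals. Division by all PETs instead would raise every intrachromosomal ratio by a factor of 1.08, or 0.11 on the log2 scale.

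Cohesin extrudes chromatin loops and is often halted at sites bound by CTCF, so that pairs of anchors on the same chromosome can mark the feet of loops. CTCF binding at the anchors was not examined here. VAV2 encodes a signalling protein of the VAV family. BRD3 encodes a bromodomain protein of the BET family, which binds acetylated histones. OLFM1 encodes olfactomedin 1 (noelin), a secreted glycoprotein of the nervous system. NOTCH1 encodes a receptor cleaved on ligand binding to release a domain that acts in transcription. EGFL7 encodes a secreted protein best known from endothelium. In the RefSeq gene order of GRCh38, the protein-coding genes BRD3OS, BRD3, WDR5 and RXRA follow VAV2, and EGFL7 and AGPAT2 follow NOTCH1. VAV2, BRD3 and NOTCH1 lie on the reverse strand, so their promoters are at their upper ends. The definition of the hubs places VAV2's promoter near 136857000, OLFM1 at 137967089-138013031 and NOTCH1 at 139388000-139440000 in hg19. It gives no hg19 position for BRD3 or EGFL7, and no anchor is assigned to either gene here.

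The promoter position of VAV2 lay in the anchor 136854545-136861071, the first base of OLFM1 in 137966581-137968691 and the upper end of NOTCH1 in 139437203-139441526. The RefSeq sequence of the 250 bases before the start site is shown for these 3 genes, because each has an anchor at its promoter end. All 5 genes matched the RefSeq promoter table, with 8 start sites. The windows shown are chr9:133992325-133992574 (reverse strand) for VAV2, chr9:135075255-135075504 (forward strand) for OLFM1's first start site and chr9:136546049-136546298 (reverse strand) for NOTCH1, in GRCh38.p14, read 5′ to 3′ along the gene. Capitals mark a match to a core of the CTCF motif, written CC, any 3 bases, AG, any 2 bases, GGC.
VAV2: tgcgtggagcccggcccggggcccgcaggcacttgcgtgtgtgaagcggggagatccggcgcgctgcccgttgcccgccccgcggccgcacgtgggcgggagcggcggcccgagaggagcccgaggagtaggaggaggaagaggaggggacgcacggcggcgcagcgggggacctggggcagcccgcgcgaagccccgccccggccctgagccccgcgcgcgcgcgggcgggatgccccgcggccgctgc
OLFM1: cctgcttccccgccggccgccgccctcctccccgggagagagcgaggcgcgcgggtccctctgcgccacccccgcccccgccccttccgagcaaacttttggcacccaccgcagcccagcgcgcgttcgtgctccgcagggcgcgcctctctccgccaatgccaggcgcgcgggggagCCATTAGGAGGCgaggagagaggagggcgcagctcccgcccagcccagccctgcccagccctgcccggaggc
NOTCH1: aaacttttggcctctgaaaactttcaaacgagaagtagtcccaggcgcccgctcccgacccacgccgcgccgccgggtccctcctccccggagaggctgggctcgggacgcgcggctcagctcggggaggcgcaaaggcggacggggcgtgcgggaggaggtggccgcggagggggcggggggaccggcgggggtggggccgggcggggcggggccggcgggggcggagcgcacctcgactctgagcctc
The core was searched on both strands of windows from 250 bases before to 50 after each start site. OLFM1's first window held 1 match, CCATTAGGAGGC, 72 bases before the start site on the gene's own strand. BRD3's window held 1 on the other strand. VAV2, NOTCH1, both windows of EGFL7 and the other 2 of OLFM1 held none. Of 35116 RefSeq windows 10.6% held a match, so 2 of 8 is a description of these letters and no evidence of binding. Over the full windows, G and C made up 80.0% at VAV2, 74.7% at OLFM1 and 77.0% at NOTCH1, against a median of 58.7% over all windows. They held 46, 38 and 42 CpG dinucleotides, against a median of 14.

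At the VAV2 hub, the anchor over the VAV2 promoter was the most connected. It carried 151 intrachromosomal PETs in shBORIS and 118 in shLUC (ratio 1.15, interval 0.896 to 1.47). It ranked 12 by summed PETs among all anchors and 3 by called interactions, of which it had 14 in shBORIS and 13 in shLUC. Calls required a pair on 1 chromosome with 3 or more PETs whose Bayes probability, as the authors gave it, reached 0.9. The contacts of the promoter anchor lay mostly at lower coordinates, where 36 anchors of the hub lay, against 8 at higher ones. Within 2 Mb, 136 PETs in shBORIS and 103 in shLUC led to lower coordinates, the side of the gene body, and 12 in shBORIS and 10 in shLUC to the side of BRD3. Of its calls, 12 in shBORIS and 11 in shLUC lay on the gene body side. The same 2 lay on the other side in both tables, with 136889564-136891639 (4 PETs in shBORIS, 5 in shLUC) and 136963632-136965264 (3 in each).

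The strongest partner of the VAV2 promoter anchor was 136657500-136659888, which lay 199 kb away. That pair had 32 PETs in shBORIS and 27 in shLUC (ratio 1.06, interval 0.617 to 1.84). Next to it, 136646278-136648394 contacted the promoter anchor across 210 kb with 18 PETs in shBORIS and 11 in shLUC (ratio 1.47, interval 0.656 to 3.44). The broadest anchor of the hub, 136738021-136750580, contacted it with 12 PETs in shBORIS and 6 in shLUC. All 3 contacts were called in both tables. Its direct neighbour, 136750792-136755860, contacted the promoter anchor across 104 kb with 14 PETs in shBORIS and 2 in shLUC. That ratio was 6.27 (1.44 to 56.9), with an adjusted p of 0.511 in Fisher's exact test over 3951 pairs. This pair had the smallest unadjusted p of any tested hub pair, 0.00504, and was called in shBORIS alone. The same neighbour contacted 136657500-136659888 with 9 PETs in shBORIS and 2 in shLUC, an adjusted p of 0.825 in that test. With 136738021-136750580 itself, across 9.03 kb, it had 30 PETs in shBORIS and 21 in shLUC (ratio 1.28, interval 0.709 to 2.35). The anchors of this last pair nearly abut, and whether PETs between them mark a loop was not tested. The neighbour had more PETs in shBORIS with these 3 partners, and of the 3 intervals that of the promoter pair left out 1.

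**Figure D1:**
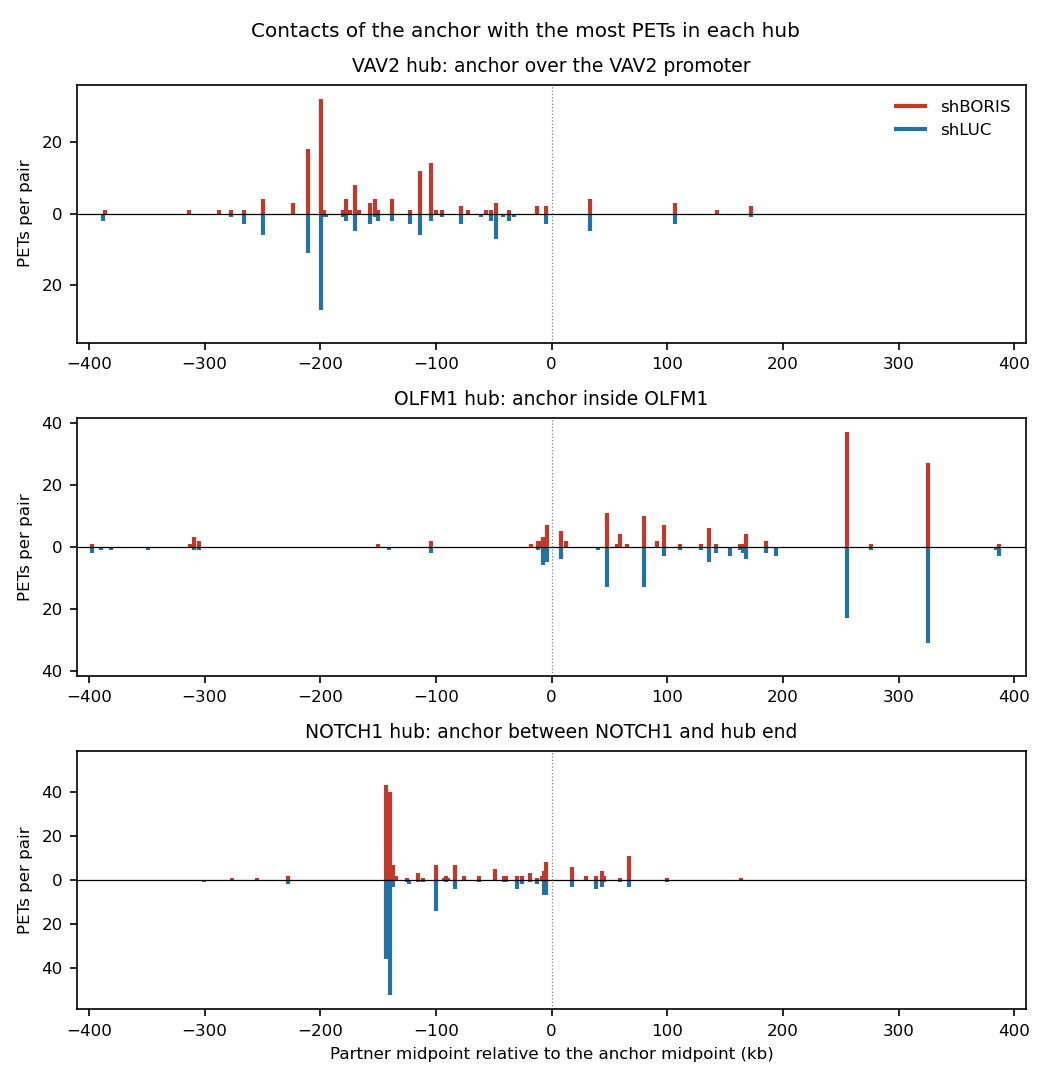
PETs per pair (vertical axis, shBORIS upward and shLUC downward) of the anchor with the most PETs in each hub, against the distance in kb of the partner's midpoint. The VAV2 promoter anchor had 32 PETs in shBORIS and 27 in shLUC with its strongest partner on the lower side, the anchor inside OLFM1 had its strongest partners on the higher side, and the NOTCH1 hub anchor had its strongest at 139 and 143 kb on the lower side.

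Summed over all its contacts, 136750792-136755860 had 109 PETs in shBORIS and 64 in shLUC (ratio 1.53, interval 1.11 to 2.11) with an adjusted p of 0.537 by Fisher's exact test. It had 12 called interactions in shBORIS and 5 in shLUC. Its interchromosomal PETs numbered 111 in shBORIS and 83 in shLUC (ratio 1.35, interval 1.00 to 1.81), and their part in the intrachromosomal difference was not tested. In the opposite direction, 136808003-136811253 had 19 PETs in shBORIS and 44 in shLUC (ratio 0.387, interval 0.213 to 0.677). Its p was the smallest of any hub anchor, 0.000351 unadjusted and 0.249 adjusted in Fisher's exact test over 19623 anchors. Its contact with the promoter anchor had 3 PETs in shBORIS and 7 in shLUC, and that with 136750792-136755860 had 1 in shBORIS and 7 in shLUC. The remaining leading anchors of the gene body side differed less. At 136738021-136750580 there were 99 PETs in shBORIS and 83 in shLUC (ratio 1.07, interval 0.791 to 1.45). At 136657500-136659888 there were 94 in shBORIS and 68 in shLUC (ratio 1.24, interval 0.897 to 1.72).

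On the side of BRD3, 8 anchors of the hub lay above the promoter anchor. They took part in 133 PETs in shBORIS and 122 in shLUC (ratio 0.977, interval 0.759 to 1.26). The leading one, 137034951-137037761, had 68 PETs in shBORIS and 76 in shLUC (ratio 0.802, interval 0.570 to 1.13). It faced away from VAV2, with 66 PETs in shBORIS and 68 in shLUC to higher coordinates within 2 Mb, and 2 in shBORIS and 5 in shLUC to lower ones. Its strongest contact reached 137333827-137336358, outside the hub and 299 kb away, with 28 PETs in shBORIS and 26 in shLUC (ratio 0.965, interval 0.546 to 1.71). It also contacted 137166781-137170311 with 5 PETs in shBORIS and 6 in shLUC, and 137310958-137312461 with 4 in each. No interaction that joined this anchor to the VAV2 promoter anchor was called in either table. The longest call of the hub, between 136657500-136659888 and 136963632-136965264 across 306 kb, had 0 PETs in shBORIS and 3 in shLUC.

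At the OLFM1 hub, contacts fanned out from 1 anchor inside the gene. This anchor, 137976589-137982937, had 160 PETs in shBORIS and 156 in shLUC (ratio 0.919, interval 0.733 to 1.15), and ranked 5 by summed PETs among all anchors. It had 12 called interactions in shBORIS and 13 in shLUC, 10 of them the same. It lay 9500 to 15848 bases after the first base of OLFM1. RefSeq lists 2 further OLFM1 start sites in GRCh38, 11755 and 12163 bases after the first, but positions were not converted between builds. Whether those start sites lie in the anchor was therefore not determined. The anchor over the first base of OLFM1, 137966581-137968691, had 23 PETs in shBORIS and 16 in shLUC (ratio 1.29, interval 0.652 to 2.61), and 1 call in each, with its neighbour 2.31 kb away.

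From the anchor inside OLFM1, 130 PETs in shBORIS and 122 in shLUC led within 2 Mb to higher coordinates, along and beyond the gene, and 27 in shBORIS and 28 in shLUC to lower ones. Its strongest contact, with 138233221-138237594 at 256 kb, had 37 PETs in shBORIS and 23 in shLUC (ratio 1.44, interval 0.834 to 2.54) with an adjusted p of 0.962 by Fisher's exact test. The next, with 138303807-138305796 at 325 kb and just outside the hub, had 27 PETs in shBORIS and 31 in shLUC (ratio 0.781, interval 0.448 to 1.35). These 2 distal partners contacted each other with 7 PETs in shBORIS and 4 in shLUC. The first of them had 78 PETs in all in shBORIS and 69 in shLUC (ratio 1.01, interval 0.723 to 1.42). Of the anchors between the gene and the distal partners, 3 are described next. The first, 138024105-138031971, had 79 PETs in each table, a ratio of 0.896 (0.648 to 1.24). The second, 138056876-138062665, had 79 in shBORIS and 80 in shLUC, and its calls numbered 11 in shBORIS and 10 in shLUC. They contacted each other across 31.7 kb with 12 PETs in shBORIS and 14 in shLUC. Each also contacted the anchor inside OLFM1, the first with 11 PETs in shBORIS and 13 in shLUC and the second with 10 in shBORIS and 13 in shLUC. The third, 138075164-138078870, contacted 138056876-138062665 with 13 PETs in shBORIS and 4 in shLUC. Their ratio was 2.91 and its interval included 1, with an adjusted p of 0.817 by Fisher's exact test. Of the 5 strongest pairs of the hub, none had an interval that left out 1. The longest call, from the anchor inside OLFM1 to 138366187-138367576 across 387 kb, had 1 PET in shBORIS and 3 in shLUC.

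Below OLFM1, 137874038-137877631 had 46 PETs in shBORIS and 67 in shLUC (ratio 0.615, interval 0.413 to 0.909) with an adjusted p of 0.567 by Fisher's exact test. It faced lower coordinates, with 40 PETs in shBORIS and 54 in shLUC on that side within 2 Mb and 4 in shBORIS and 11 in shLUC on the side of OLFM1. Its strongest contacts reached 137669351-137672413, with 11 PETs in shBORIS and 15 in shLUC, and 137589351-137591784, with 9 in shBORIS and 13 in shLUC. Its interchromosomal PETs numbered 65 in shBORIS and 64 in shLUC. Above the gene, 138132941-138134329 had 6 PETs in shBORIS and 17 in shLUC (ratio 0.316, interval 0.102 to 0.841), and 138172690-138174583 had 3 in shBORIS and 15 in shLUC (ratio 0.179, interval 0.0333 to 0.634). Neither passed Fisher's exact test, with adjusted p of 0.573 and 0.489. Interchromosomal PETs of 138132941-138134329 numbered 9 in shBORIS and 19 in shLUC, and those of 138172690-138174583 numbered 11 in shBORIS and 17 in shLUC. Their part in the differences was not tested.

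At the NOTCH1 hub, the 2 strongest contacts spanned NOTCH1 and did not start at its promoter. The leading anchor, 139518511-139526710, lay between the upper end of NOTCH1 and the upper edge of the hub. It had 188 PETs in shBORIS and 166 in shLUC (ratio 1.02, interval 0.819 to 1.26), and ranked 3 by summed PETs among all anchors, with 13 calls in shBORIS and 12 in shLUC. Its main partners were 2 adjacent anchors just below the NOTCH1 interval, past the 3′ end of the gene. With 139381830-139384881, at 139 kb, it had 40 PETs in shBORIS and 52 in shLUC (ratio 0.689, interval 0.445 to 1.06). With 139377888-139381752, at 143 kb, it had 43 in shBORIS and 36 in shLUC (ratio 1.07, interval 0.672 to 1.72). The 2 partners contacted each other with 21 PETs in shBORIS and 30 in shLUC (ratio 0.627, interval 0.341 to 1.13). Contacts among these 3 anchors were the 3 strongest pairs of the hub, none of which passed Fisher's exact test (adjusted p between 0.861 and 1.00). The fourth pair, 139381830-139384881 with its neighbour 139384934-139385680, had 12 PETs in shBORIS and 11 in shLUC. Summed over all contacts, 139381830-139384881 had 128 PETs in shBORIS and 119 in shLUC, and 139377888-139381752 had 94 in shBORIS and 91 in shLUC.

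The anchor over the NOTCH1 promoter end, 139437203-139441526, had 46 PETs in shBORIS and 26 in shLUC (ratio 1.59, interval 0.960 to 2.67) with an adjusted p of 0.789 by Fisher's exact test. Its interchromosomal PETs numbered 39 in shBORIS and 42 in shLUC. It had 5 calls in shBORIS and 4 in shLUC, of which 2 were the same. These were the contact with 139419342-139426209 inside the gene, with 9 PETs in shBORIS and 3 in shLUC, and the contact with the leading anchor, with 7 in shBORIS and 4 in shLUC. Its contact with 139381830-139384881 had 6 PETs in shBORIS and 1 in shLUC. The anchor inside NOTCH1 with the most PETs, 139419342-139426209, had 63 in shBORIS and 51 in shLUC (ratio 1.11, interval 0.753 to 1.63). Its contact with the leading anchor had 7 PETs in shBORIS and 14 in shLUC (ratio 0.448, interval 0.153 to 1.19). The 10 anchors that lay wholly inside NOTCH1 took part in 114 PETs in shBORIS and 99 in shLUC (ratio 1.03, interval 0.782 to 1.37).

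On the side of EGFL7, 32 anchors of the hub lay above the NOTCH1 promoter anchor. They took part in 505 PETs in shBORIS and 368 in shLUC (ratio 1.23, interval 1.07 to 1.41). No sum over a stretch was planned, and this stretch and the one on the side of BRD3 were set apart after values were seen. Other stretches of the hubs were also summed, and a PET that joins 2 stretches counts in both. Below the VAV2 promoter anchor there were 582 PETs in shBORIS and 446 in shLUC (ratio 1.17, interval 1.03 to 1.33). Below the OLFM1 interval there were 93 in shBORIS and 113 in shLUC (ratio 0.738, interval 0.555 to 0.979). Intervals included 1 inside OLFM1, above it and below NOTCH1. Anchors with an unadjusted p under 0.05 numbered 5 of 40 tested in the NOTCH1 hub, all higher in shBORIS and all above the NOTCH1 promoter anchor. Over all anchors tested, 3.25% were that much higher and 3.17% that much lower. At 139472342-139474451 there were 21 PETs in shBORIS and 4 in shLUC (ratio 4.71, interval 1.59 to 18.9). At 139502905-139505390 there were 19 in shBORIS and 3 in shLUC (ratio 5.68, interval 1.67 to 30.0). The anchor 139513847-139514707 had 10 in shBORIS and 1 in shLUC, with an interval of 1.28 to 389. Further up, 139538415-139541588 had 42 in shBORIS and 21 in shLUC (ratio 1.79, interval 1.04 to 3.19), and 139587688-139591429 had 57 in shBORIS and 31 in shLUC (ratio 1.65, interval 1.05 to 2.64). Their adjusted p in Fisher's exact test lay between 0.431 and 0.693. Interchromosomal PETs of the first 3 of these anchors numbered 17 in shBORIS and 12 in shLUC, 16 in shBORIS and 11 in shLUC, and 8 in shBORIS and 7 in shLUC. Those of the last 2 numbered 26 in shBORIS and 38 in shLUC, and 48 in shBORIS and 64 in shLUC. All 5 intervals of the interchromosomal ratios included 1, and the part of these PETs in the differences was not tested. The longest call of the hub, between 139681626-139682853 and 139928934-139930891 across 248 kb, had 1 PET in shBORIS and 3 in shLUC. The leading anchor contacted 139587688-139591429 with 11 PETs in shBORIS and 3 in shLUC (ratio 3.29, interval 0.868 to 18.3) with an adjusted p of 0.825 by Fisher's exact test.

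**Figure D2:**
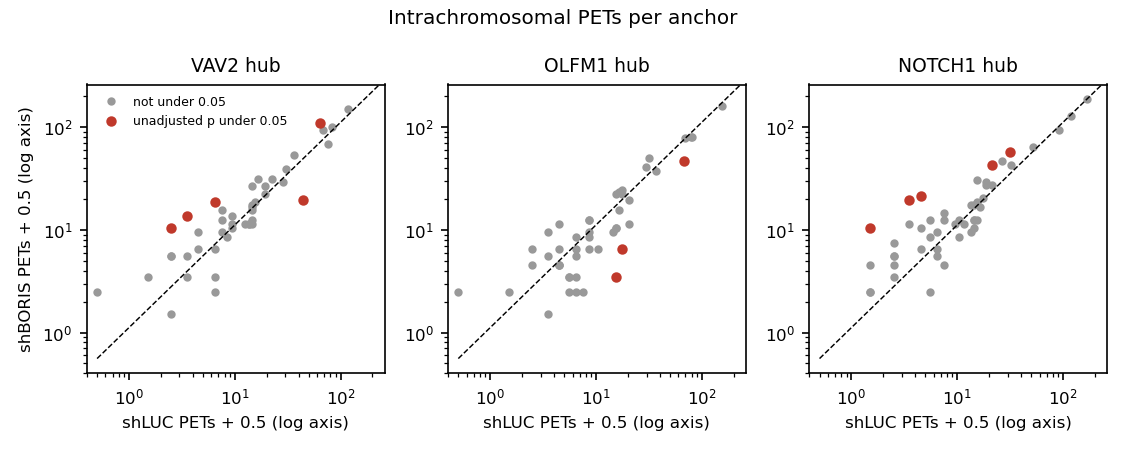
Intrachromosomal PETs of each hub anchor in shBORIS (vertical axis) and shLUC (horizontal axis), with 0.5 added, both axes logarithmic; the dashed line marks equal scaled levels and red points an unadjusted p under 0.05. Most anchors lie along the line, with 5 red points above it in the NOTCH1 hub, 3 below it in the OLFM1 hub, and 4 above and 1 below in the VAV2 hub.

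Per hub, intrachromosomal PETs numbered 643 in shBORIS and 515 in shLUC at VAV2, a ratio of 1.12 (0.995 to 1.26). At OLFM1 there were 529 in shBORIS and 539 in shLUC (ratio 0.880, interval 0.779 to 0.994). At NOTCH1 there were 626 in shBORIS and 486 in shLUC (ratio 1.15, interval 1.02 to 1.30). The rest of chromosome 9 had a ratio of 1.06 (1.02 to 1.11), and the hubs' difference from it was not tested. Interchromosomal PETs of the hubs had ratios of 1.10 (1.02 to 1.20) at VAV2, 0.960 (0.880 to 1.05) at OLFM1 and 0.990 (0.908 to 1.08) at NOTCH1. Under scaling to all PETs, the VAV2 interval left out 1 (1.07 to 1.36) and the OLFM1 interval included it (0.840 to 1.07).

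No pair and no anchor of the hubs passed the tests. Of 53 hub pairs with at least 10 summed PETs, 0 passed Fisher's exact test, against 0.0506% of all 3951 pairs. At an unadjusted p under 0.05 there was 1 higher in shBORIS and 0 lower, where 3.06% and 2.63% of all pairs were. The median log2 ratio of the tested pairs was 0.36 at VAV2 (16 pairs), 0.08 at OLFM1 (21 pairs) and 0.19 at NOTCH1 (16 pairs), against 0.02 over all 3951. Of 108 hub anchors tested, 0 passed, against 0.0204% of all 19623. At an unadjusted p under 0.05 there were 4 higher and 1 lower of 36 tested at VAV2. OLFM1 had 0 higher and 3 lower of 32, and NOTCH1 5 higher and 0 lower of 40. Over all 19623 anchors, 3.25% were that much higher and 3.17% that much lower. For interchromosomal PETs 0 of 117 hub anchors passed, against 0.0140% of 35637, with 2 higher at VAV2 and 2 lower at OLFM1 at an unadjusted p under 0.05, where 3.09% and 2.47% were. The tests compare 2 pools of libraries and not the conditions.

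Of the called interactions, those with many PETs were found in both tables. At VAV2 50 were called in shBORIS and 43 in shLUC, 25 of them in both. At OLFM1 there were 42 in each table, 29 of them in both. At NOTCH1 there were 51 in shBORIS and 37 in shLUC, 25 of them in both. The shBORIS table had more calls over the whole series as well. There, 13111 of 92885 listed intrachromosomal pairs were called in shBORIS (14.1%) and 11236 of 86872 in shLUC (12.9%). Calls without a match thus made up 25 of 50 shBORIS calls at VAV2, 13 of 42 at OLFM1 and 26 of 51 at NOTCH1, against 52.0% of shBORIS calls in the whole series. For shLUC they made up 18 of 43, 13 of 42 and 12 of 37, against 44.0%. The share of calls found in both was 69.0% at OLFM1 in either table (52.9 to 82.4), against 48.0% of all shBORIS calls and 56.0% of all shLUC calls. Calls share anchors, which this interval does not cover, and calls with more PETs were more often matched. At OLFM1 10 of 42 shBORIS calls had at least 10 PETs, against 1209 of 13111 in the whole series. Of its calls with 3 PETs, 3 of 13 in shBORIS and 2 of 11 in shLUC were matched, against 25.5% and 33.9%. Of those with 4 to 9 PETs, 16 of 19 and 20 of 24 were, against 56.3% and 66.3%. The part of PET counts in the OLFM1 share was not tested. Unmatched calls were weak. Their median was 3 PETs at VAV2 and OLFM1 in each table, and 3.5 in shBORIS and 3 in shLUC at NOTCH1. Of calls with at least 10 PETs, 20 of 21 in shBORIS and 16 of 16 in shLUC were matched, against 1151 of 1209 in shBORIS and 950 of 975 in shLUC in the whole series. The exception was the pair of the VAV2 promoter anchor with 14 PETs in shBORIS and 2 in shLUC. Unmatched shBORIS calls had at least 1 PET in shLUC in 17 of 25 cases at VAV2, 10 of 13 at OLFM1 and 19 of 26 at NOTCH1, against 4624 of 6820 in the whole series. Unmatched shLUC calls had at least 1 PET in shBORIS in 15 of 18, 7 of 13 and 12 of 12 cases, against 3493 of 4945.

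**Figure D3:**
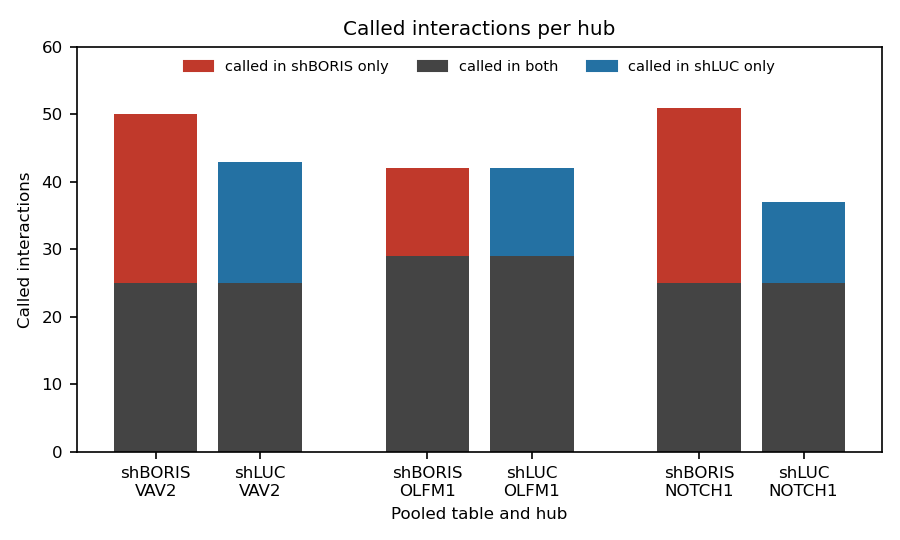
Number of called interactions per hub in the pooled tables of shBORIS (left bar of each pair) and shLUC (right bar), split into those called in both (dark) and in 1 table. The VAV2 hub had 50 in shBORIS and 43 in shLUC, the OLFM1 hub 42 in each and the NOTCH1 hub 51 in shBORIS and 37 in shLUC. The whole series had 13111 in shBORIS and 11236 in shLUC.

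**Figure D4:**
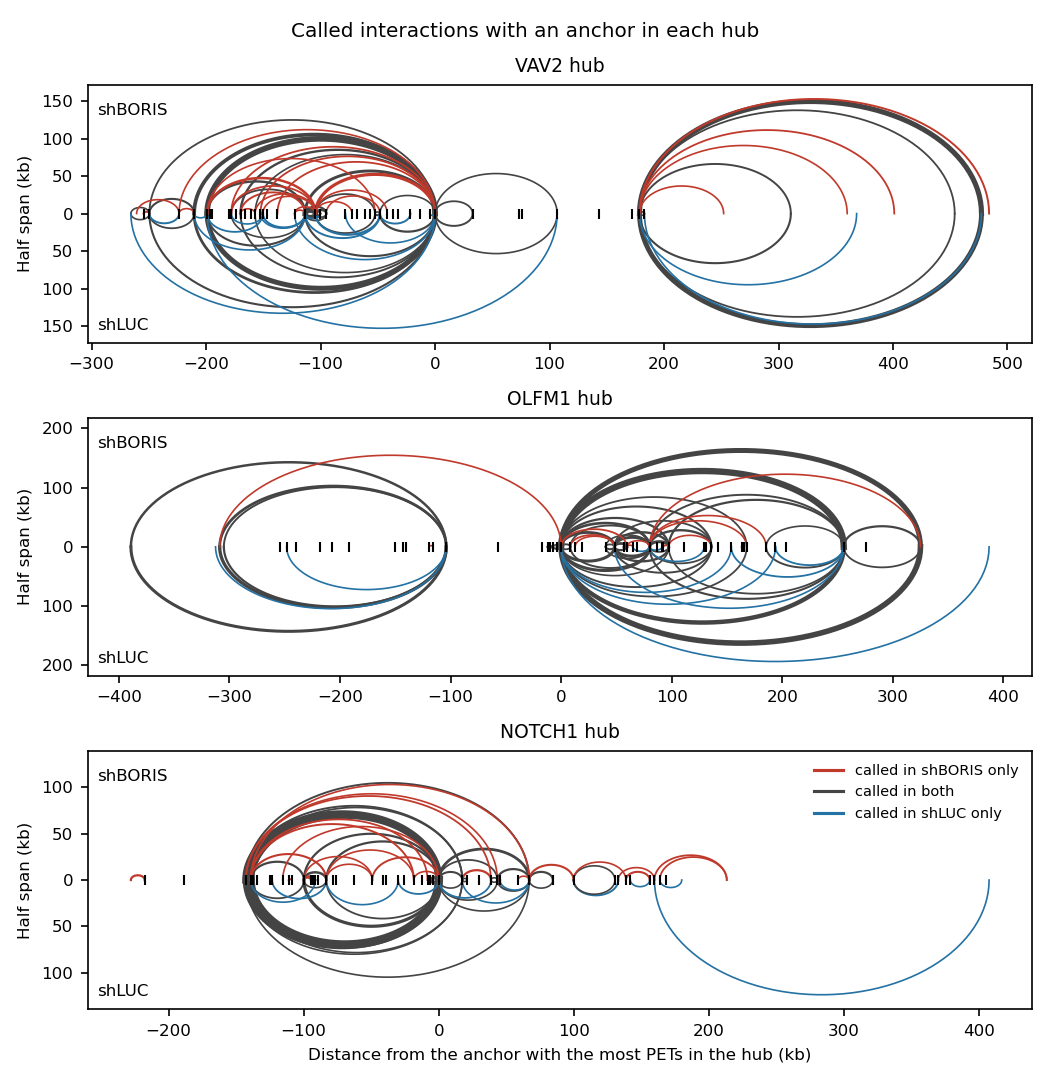
Called interactions as arcs, shBORIS above and shLUC below the line, against the distance in kb from the anchor with the most PETs; arc height is the span divided by 2, line width follows the PETs and ticks mark the hub's anchors. Many of the thick dark arcs, called in both tables, end at the VAV2 promoter anchor, the anchor inside OLFM1 and the leading NOTCH1 hub anchor, while most arcs of 1 table are thin.

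The hubs differed in median span, a difference that was not tested. At VAV2 the median span of a PET was 110 kb in shBORIS and 105 kb in shLUC. It was 97.6 kb in shBORIS and 136 kb in shLUC at OLFM1, and 66.9 kb in shBORIS and 79.8 kb in shLUC at NOTCH1. Over the whole series it was 102 kb in shBORIS and 113 kb in shLUC. The rest of chromosome 9 had 58.9 kb in shBORIS and 66.4 kb in shLUC. PETs under 20 kb made up 19.6% in shBORIS (16.6 to 22.9) and 16.5% in shLUC (13.4 to 20.0) at VAV2, 22.5% in shBORIS (19.0 to 26.3) and 17.6% in shLUC (14.5 to 21.1) at OLFM1. At NOTCH1 they made up 26.4% in shBORIS (22.9 to 30.0) and 28.8% in shLUC (24.8 to 33.1). Over the whole series the shares were 19.9% in shBORIS and 18.4% in shLUC. At VAV2 the class under 20 kb had 126 PETs in shBORIS and 85 in shLUC (ratio 1.33, interval 1.001 to 1.77). The class from 20 to 100 kb holds the promoter contacts with 136808003-136811253 and 136889564-136891639. It had 167 PETs in shBORIS and 168 in shLUC (ratio 0.891, interval 0.715 to 1.11). The class from 100 to 500 kb, which holds the other promoter contacts described above, had 286 PETs in shBORIS and 203 in shLUC (ratio 1.26, interval 1.05 to 1.52). At OLFM1 that class had 214 in shBORIS and 228 in shLUC (ratio 0.841, interval 0.695 to 1.02). At NOTCH1 the class from 20 to 100 kb had 208 in shBORIS and 136 in shLUC (ratio 1.37, interval 1.10 to 1.71). Over the whole series the ratios were 1.08 under 20 kb, 1.03 from 20 to 100 kb and 0.981 from 100 to 500 kb. No hub had a called interaction longer than 500 kb in either table. Such calls were rare in the whole series, where 420 of 13111 in shBORIS and 362 of 11236 in shLUC spanned 500 kb to 2 Mb, and 6 in shBORIS and 9 in shLUC spanned more. Above 2 Mb the ratios were 0.949 (0.577 to 1.56) at VAV2, 0.589 (0.332 to 1.03) at OLFM1 and 0.548 (0.307 to 0.957) at NOTCH1, on at most 36 PETs per table. The rest of chromosome 9 had 0.866 (0.728 to 1.03) there and the whole series 0.886 (0.868 to 0.904).

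**Figure D5:**
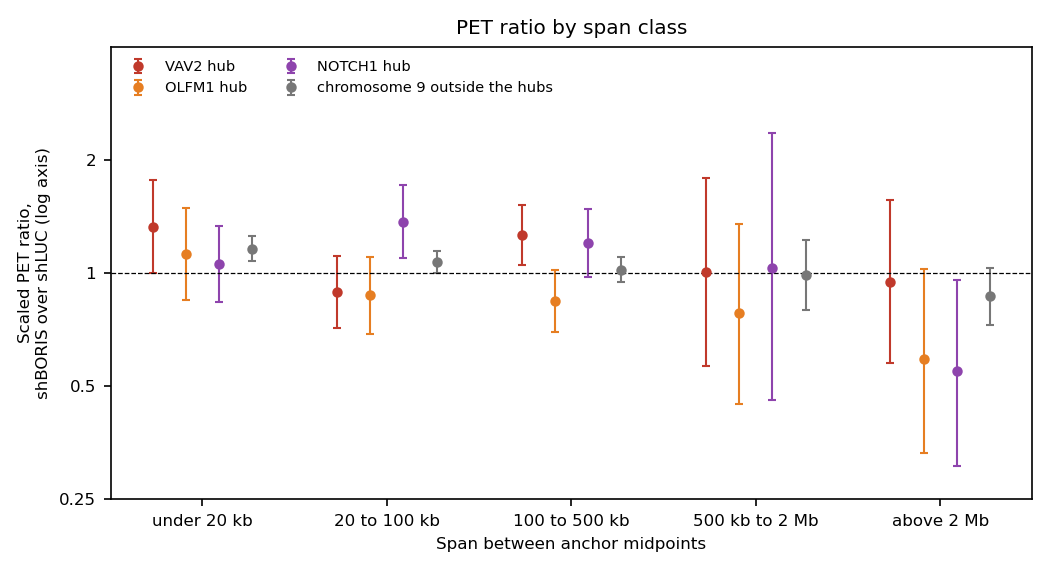
Scaled PET ratio of shBORIS over shLUC (logarithmic vertical axis) by span class for the 3 hubs and the rest of chromosome 9; points are ratios and bars exact 95% intervals for counting error. The VAV2 hub stands at 1.33 under 20 kb and at 1.26 from 100 to 500 kb. The OLFM1 hub stands at 0.841 from 100 to 500 kb and the NOTCH1 hub at 1.37 from 20 to 100 kb.

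Interchromosomal PETs outnumbered intrachromosomal ones, as they did over the whole series, where intrachromosomal PETs made up 36.2% in shBORIS and 33.6% in shLUC. At VAV2 there were 1218 interchromosomal PETs in shBORIS and 1110 in shLUC. OLFM1 had 1027 in shBORIS and 1077 in shLUC, and NOTCH1 1047 in shBORIS and 1065 in shLUC. Nearly all interchromosomal pairs held 1 PET in all, 2313 of 2320 at VAV2, 2086 of 2095 at OLFM1 and 2094 of 2103 at NOTCH1. Listed in both tables were 2, 2 and 1 of the interchromosomal pairs. A pair with 1 PET in all can be listed in only 1 table, so this count follows from the low counts per pair. The whole series had 572597 interchromosomal pairs, with 286938 PETs in shBORIS and 288835 in shLUC. The share of these listed in both tables was not computed. Of the intrachromosomal PETs, most joined 2 anchors of the same hub. Such pairs held 445 PETs in shBORIS and 351 in shLUC at VAV2, 358 in shBORIS and 341 in shLUC at OLFM1, and 513 in shBORIS and 394 in shLUC at NOTCH1. Between hubs there were few. VAV2 and OLFM1 shared 2 PETs in shBORIS and 5 in shLUC, VAV2 and NOTCH1 4 in shBORIS and 5 in shLUC, and OLFM1 and NOTCH1 1 in shBORIS and 3 in shLUC. None of the 20 pairs that joined hubs held a call. Of 45, 47 and 49 anchors, 27, 24 and 33 had a call in shBORIS and 25, 25 and 27 in shLUC at VAV2, OLFM1 and NOTCH1. Over the series 14460 of 39507 anchors had one in shBORIS and 13543 in shLUC. The 5 anchors with the most PETs took 47.9% of the hub's PET ends in shBORIS and 47.2% in shLUC at VAV2, 50.2% in shBORIS and 51.2% in shLUC at OLFM1, and 46.5% in shBORIS and 52.2% in shLUC at NOTCH1. The window edges cut through neighbouring contacts. At OLFM1 the first anchor above the edge, 138303807-138305796, had 54 PETs in shBORIS and 53 in shLUC, and the last inside, 138255269-138256123, had 4 in each. The last below the OLFM1 window, 137673182-137676148, had 22 in shBORIS and 26 in shLUC, and the first inside 8 in shBORIS and 6 in shLUC. Below the NOTCH1 window, 139293687-139295753 had 31 in shBORIS and 22 in shLUC, and the first inside 7 in shBORIS and 2 in shLUC. At the upper NOTCH1 edge the last inside had 2 in shBORIS and 5 in shLUC and the first outside 11 in shBORIS and 9 in shLUC. For VAV2 the anchors at the lower edge had 13 in shBORIS and 3 in shLUC inside and 12 in shBORIS and 7 in shLUC outside. Those at its upper edge had 11 in shBORIS and 14 in shLUC inside and 3 in each table outside.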

How the data were processed

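Intrachromosomal and interchromosomal contacts were read from the deposited anchor pair tables, 1 per group. Each table is listed for 2 libraries, per the labels, and was taken as their pool. PET counts per pair, so titled in the deposited header, were used without normalization. The authors' Bayes probability, a fraction per the file headers, entered calls. The authors' hypergeometric p-value was not used. No header came with shBORIS, whose columns were taken to follow those of shLUC. Tools include cutadapt 1.8 and Bowtie on hg19, per the submitters' processing notes, and the program that called anchors is not given in the sources used here. Starts were read as counted from 0 and are printed counted from 1.

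Pairs and anchors with at least 10 summed PETs were tested by Fisher's exact test (two-sided) against all other intrachromosomal (or interchromosomal) PETs, adjusted by Benjamini-Hochberg over the whole table, at a threshold of 0.05. Ratio intervals are exact Clopper-Pearson intervals given the summed count. PETs amplified by PCR are not independent molecules. Medians of log2 ratios add 0.5 to each count. Span is the distance between anchor midpoints. The scripts (Python 3.11.15, SciPy 1.17.1) were tested on simulated data. Hubs, genes and lists were chosen with earlier results of these data known. Features named by rule are, per hub, the 5 anchors and 5 pairs with the most PETs, the smallest p in each direction, anchors at the given gene positions and the longest call, and others were chosen after their values were seen. Gene positions of hg19 beyond those of the hub definition, and lists of Notch, BET, VAV and olfactomedin genes, were not used here.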

Additional observations from a re-analysis of the deposited data

How the results depend on the processing

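Of 54 alternatives for called interactions, 31 stayed within 1.5 times the main count and 23 did not. The 18 for the hub ratios and the 66 for single pairs and anchors stayed inside the main counting interval. The only alternative for single pairs was scaling to all PETs, which single anchors had as well. It multiplies each ratio by 1.08, which cannot leave a wide interval, so for most of the 66 the outcome was set in advance. The 5 for pairs and anchors past the threshold left 0. With at least 5 PETs, calls in shBORIS and shLUC numbered 18 and 18 at VAV2 (9 in both, 9 in shBORIS only, 9 in shLUC only). They numbered 21 and 21 at OLFM1 (15, 6 and 6) and 27 and 12 at NOTCH1 (9, 18 and 3). Where a single PET on the other side sufficed for sharing, 57 were shared at VAV2, 8 were of shBORIS only and 3 of shLUC only; at OLFM1 46, 3 and 6; at NOTCH1 56, 7 and 0. Both follow from the changed minimum, and the same counts over the whole series were not computed. The VAV2 ratio ranged from 1.08 to 1.21, OLFM1 from 0.844 to 0.949 and NOTCH1 from 1.10 to 1.25. Restricted to pairs called in either table, the NOTCH1 interval included 1 (0.942 to 1.29). The OLFM1 interval included 1 when scaled to all PETs (0.840 to 1.07), within 2 Mb (0.781 to 1.00), with both anchors inside (0.809 to 1.09) and for called pairs (0.785 to 1.09). The smallest adjusted p was between 0.503 and 0.875 for hub pairs and between 0.188 and 0.249 for hub anchors. No paired analysis was possible because the tables used here give pooled values per group, and for that reason no library was omitted in turn. Values per library were not analysed here.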

Other observations

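Most anchors with a called interaction were linked into 1 cluster per hub. At VAV2 the largest cluster held 27 anchors in shBORIS and 24 in shLUC, between 136590552 and 136965264 in both, and the anchor 137034951-137037761 stood in a separate cluster. At OLFM1 the largest held 24 anchors in shBORIS, from 137589351 to 138305796, and 25 in shLUC, from 137966581 to 138367576. In shBORIS the contacts below the gene were joined to it by 1 call of 3 PETs, between 137669351-137672413 and the anchor inside OLFM1, a pair with 1 PET in shLUC. At NOTCH1 the largest held 27 anchors in shBORIS and 20 in shLUC.

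Wider anchors had more PETs. Spearman's rank correlation between anchor width and intrachromosomal PETs was 0.80 in shBORIS and 0.79 in shLUC over 45 anchors at VAV2, 0.75 and 0.80 over 47 at OLFM1, and 0.84 and 0.67 over 49 at NOTCH1. The anchors share a library pool and each pair enters at both its ends. More PET ends can be assigned to a wider segment, so a positive correlation was likely set in advance. The correlation over the whole series was not computed.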
